A study of Mus musculus with 6 samples.

Results

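Estradiol-gained regions inside gene bodies were the stretches of the mouse genome in which an estrogen receptor alpha (ERα) peak was listed after estradiol and not after vehicle, away from the ends of genes. Overlapping or touching peaks of the 6 deposited peak lists were merged into 39374 regions. The members were chosen by the peak calls themselves: a region needed a peak in at least 2 of the 3 estradiol lists and in 0 of the 3 vehicle lists. It also had to overlap the span of a protein-coding gene and lie more than 1 kb from either end of every such gene. This gave 588 regions of 39374 in all, and of 14505 regions inside gene bodies (4.05%). The same rule with the treatments exchanged gave 359 vehicle-gained regions (2.48%). These counts follow from the rule and depend on list lengths, which differed. They are given as a description, with no test.

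The peaks came from CUT&RUN, in which an antibody against ERα guides micrococcal nuclease to the bound chromatin of isolated nuclei and the short fragments that are cut free are sequenced. The animals of both groups were adult C57/BL6 male mice that had been gonadectomized at 10-12 weeks of age, so the controls too lacked gonadal hormones. At 3 weeks after surgery, the estradiol group (3 libraries) was given 5 µg of estradiol benzoate, an esterified estradiol, under the skin. The vehicle group (3 libraries) was given corn oil, and nuclei of the limbic system were prepared 4 hours later in both groups. Separate animals, or pools of them, are not named for the libraries of either group. The p-values below therefore reflect library-to-library spread, part of which may be technical. Replicate 3 of each group had shorter labels, with the tissue tag reading brain, and another style of peak name. For these reasons replicate 3 was treated as a batch of its own with 1 library per group, although the labels name no batch. Peak lists hold no expression values, so the tissue could not be checked against the transcripts of marker genes. In bulk tissue, binding in fewer cells and less binding per cell cannot be told apart.

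ERα, the product of Esr1, is a nuclear receptor that estradiol activates and that binds DNA as a dimer at estrogen response elements. It is known for acting through many sites far from promoters, in introns and between genes, where it recruits coactivators to enhancers. In the limbic system it is carried by subsets of neurons in areas such as the medial amygdala, the bed nucleus of the stria terminalis and the hypothalamus, which take part in social, sexual and feeding behaviour.

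Sequence was read at the members that overlapped an internal start site, using RefSeq promoter windows of assembly GRCm38.p6 that run from 250 bases before a transcript start to 50 bases after it. A gene body can hold such a start when transcripts begin downstream of the outermost one. Of the 588 members, 16 overlapped 18 windows (2.72%). These 16 members lay in Psen2, Ddx56, Rangrf, Mia2, Elmo1, Zswim8, Cbx7, Rarg, Mxi1, Gabpb1, Naa20, Fbxw7, Rusc2, Shroom3, Spg21 and Phip. Those in Psen2 and Elmo1 each also overlapped a window of another gene on the opposite strand, Gm31728 and Gm32036. The 250 bases before the start are printed 5′ to 3′ on the gene's strand for 5 of the 16 members. These were chosen after their values were seen, to show the single such member held by all 3 estradiol lists (Zswim8), the window with a response element repeat (Rangrf), a nuclear receptor gene (Rarg) and 2 GC-rich or more strongly called examples (Gabpb1 and Ddx56). Capitals mark the bases that lie inside the ERα region.
Zswim8, chr14:20707302-20707551, plus strand: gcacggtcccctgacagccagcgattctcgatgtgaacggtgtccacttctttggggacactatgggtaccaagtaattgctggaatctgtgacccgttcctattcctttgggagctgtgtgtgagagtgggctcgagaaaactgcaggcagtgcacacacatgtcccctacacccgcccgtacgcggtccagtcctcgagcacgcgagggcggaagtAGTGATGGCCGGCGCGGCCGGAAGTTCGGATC
Rangrf, chr11:68973856-68974105, minus strand: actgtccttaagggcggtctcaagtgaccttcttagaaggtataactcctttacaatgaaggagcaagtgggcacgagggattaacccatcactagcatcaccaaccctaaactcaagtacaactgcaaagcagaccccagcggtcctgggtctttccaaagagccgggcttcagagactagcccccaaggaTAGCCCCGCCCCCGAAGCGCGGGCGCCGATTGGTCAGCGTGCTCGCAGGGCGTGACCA
Ddx56, chr11:6267730-6267979, minus strand: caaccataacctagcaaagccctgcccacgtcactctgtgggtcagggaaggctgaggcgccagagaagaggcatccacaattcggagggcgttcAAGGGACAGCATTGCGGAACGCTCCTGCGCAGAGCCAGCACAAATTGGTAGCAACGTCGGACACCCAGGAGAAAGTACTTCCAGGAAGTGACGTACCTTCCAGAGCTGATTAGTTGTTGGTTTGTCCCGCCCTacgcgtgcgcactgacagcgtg
Rarg, chr15:102246501-102246750, minus strand: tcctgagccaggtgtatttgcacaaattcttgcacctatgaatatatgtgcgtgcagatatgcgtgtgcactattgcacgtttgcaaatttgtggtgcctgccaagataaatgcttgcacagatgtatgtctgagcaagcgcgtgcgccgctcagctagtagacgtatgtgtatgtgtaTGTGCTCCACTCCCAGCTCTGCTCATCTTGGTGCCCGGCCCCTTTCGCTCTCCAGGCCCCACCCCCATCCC
Gabpb1, chr2:126675593-126675842, minus strand: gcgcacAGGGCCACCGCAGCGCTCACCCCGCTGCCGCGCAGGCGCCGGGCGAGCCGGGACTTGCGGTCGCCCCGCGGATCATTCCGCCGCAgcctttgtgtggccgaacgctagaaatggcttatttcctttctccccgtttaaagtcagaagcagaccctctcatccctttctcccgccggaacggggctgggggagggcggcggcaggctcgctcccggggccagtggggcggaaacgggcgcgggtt

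Zswim8 encodes a substrate receptor of a ubiquitin ligase known for target-directed microRNA decay. Its region had a −log10 q-value, the authors' significance of a peak, of 3.88, 4.09 and 3.76 in estradiol replicates 1, 2 and 3, from about 6, 6 and 7 fragments at the summit. The Ddx56 region, in a gene for an RNA helicase, was listed in estradiol replicates 2 and 3 with 7 and 6 fragments. For Rangrf, a gene whose product binds the nuclear transport protein Ran, the same lists gave 6 and 5 fragments. The Rarg region, in the gene of retinoic acid receptor gamma, held 5 and 6 fragments, and the Gabpb1 region, in the gene of a subunit of the transcription factor GABP, held 6 and 5. The nearest vehicle peak was 0.239 kb from the Zswim8 region, 0.415 kb from the Gabpb1 region and 5.67 to 16.2 kb from the other 3. All 5 regions were close to the smallest summit that was called in any list, which held 4 fragments. Over the members, the lowest −log10 q among a region's estradiol lists had a median of 3.13 at start windows and 3.24 elsewhere.

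The windows were searched on both strands, over their whole length, for short motifs. The full response element, GGTCA and TGACC with any 3 bases between them, was in 0 of the 18 windows and in 0.0700% of all 32851 windows. Its single repeat AGGTCA, which also forms part of the longer motif TCAAGGTCA, was in 1 of the 18 windows and in 16.3% of all windows. That match lay in the Rangrf window on the other strand, 226 to 221 bases before the start, and outside the ERα region. GGGCGG, a motif of SP and KLF factors, was in 11 of the 18 windows and in 35.7% of all windows. The Psen2 and Gm31728 windows, which overlap each other, were both among the 11. The 18 windows had a median GC content of 61.8% against 52.7% over all windows, and the motif shares were not corrected for it. The E-box CAGATG was in 2 windows (17.2% of all windows) and the CTCF core in 1 (2.43%). There were 0 matches of TGA, any base, TCA (AP-1, 7.81% of all windows), of TCAAGGTCA (0.423%), of TGTTTAC (FOX factors, 3.65%), of TTGGC, any 5 bases, GCCAA (NFI, 0.0365%), of CTA, any 4 bases, TAG (MEF2, 3.69%) and of TAATTA (homeobox factors, 5.29%). A match is a description of the letters, and the other 572 members were not searched.

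The members were mostly low. Their median width was 96 bp (28 to 343 bp), against 71 bp for vehicle-gained regions and 42 bp for gene-body regions in 1 list, and regions in all 6 lists were wider by median. The number of fragments at a summit was worked out from the deposited fold enrichment and p-value, and is an estimate. Estradiol replicate 1 held 289 of the 588 members (49.1%), with 4 to 20 fragments and a median of 5. Estradiol replicate 2 held 497 (84.5%), with 4 to 22 fragments and a median of 5. Estradiol replicate 3 held 505 (85.9%), with 4 to 40 fragments and a median of 6. These medians equal those of all gene-body peaks in the same 3 lists, at 5, 5 and 6. Summits of 10 or more fragments made up 12 of the members held in replicate 1 (4.15%), 41 in replicate 2 (8.25%) and 92 in replicate 3 (18.2%). The replicates therefore differed in how many members they listed, and replicate 1 listed the fewest.

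**Figure D1:**
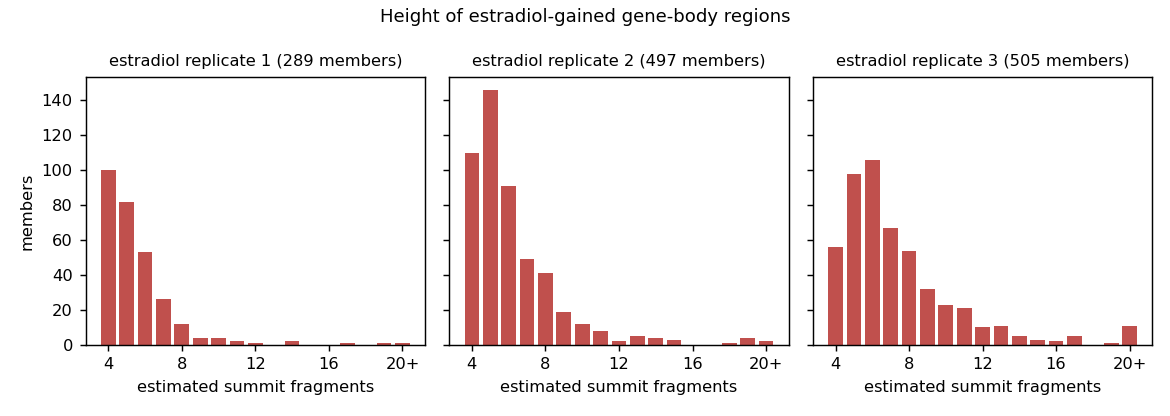
Number of members (vertical axis) by the estimated number of fragments at the peak summit (horizontal axis, summits of 20 or more in the last bar), for each estradiol library. The lowest called height of 4 fragments holds 100 members in replicate 1, 110 in replicate 2 and 56 in replicate 3.

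All 3 estradiol lists held 115 of the members, and exactly 2 lists held 473. Of the latter, 299 were in replicates 2 and 3, 91 in replicates 1 and 3, and 83 in replicates 1 and 2. In the other direction, 13 gene-body regions were in all 3 vehicle lists and in 0 estradiol lists. Such a region needs a peak in vehicle replicate 1, which listed only 1281 gene-body peaks. The shortest estradiol list, replicate 1, had 3112, so the counts of 115 and 13 are not on an equal footing. Many regions missed the rule by a single vehicle peak: 572 gene-body regions had 2 or 3 estradiol peaks and exactly 1 vehicle peak, which was in vehicle replicate 1 for 15, in replicate 2 for 137 and in replicate 3 for 420. A further 4920 had 1 estradiol peak and no vehicle peak. At the distance limit, a region in 0610010F05Rik lay 1010 bp from a gene end and one in Lrp2, an endocytic receptor, lay 1118 bp from it. Just outside were a region in Tmem267 at 965 bp and one in Tspear at 958 bp, the latter with a −log10 q of 10.6 and 10.3 in estradiol replicates 2 and 3. Members lay a median of 19.4 kb from the nearest vehicle peak. Within 0.1 kb of a vehicle peak there were 47 members (7.99%), within 1 kb 76 (12.9%) and within 10 kb 195 (33.2%).

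The members that stood highest in all 3 estradiol lists, ranked by the lowest of their 3 −log10 q-values, lay in genes of several kinds. The first was in the gene of Dpp6, which assembles with A-type potassium channels as an auxiliary protein (chr5:27568346-27568587), with 19, 22 and 31 summit fragments in estradiol replicates 1, 2 and 3. Next came 4930579F01Rik (chr3:138186570-138186852) with 20, 19 and 25 fragments and Greb1, which encodes an ERα cofactor and is a classic estrogen target in breast cells (chr12:16760333-16760598), with 17, 18 and 40. In these 3 regions every estradiol library was at least 4 times as high as the smallest called summit of 4 fragments, and replicate 3 was the highest. Zfp277, which encodes a zinc finger protein, followed with 14, 13 and 29 fragments, and Lekr1 with 11, 19 and 17. Oxct1, which encodes an enzyme that breaks down ketone bodies, had 12, 20 and 20, and Rere, a nuclear receptor coregulator of the atrophin family, had 10, 13 and 14. None of these had a peak in any vehicle list, as the rule requires.

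Heights near 10 fragments were already reached by the eighth of these members, and the regions below it lay close together. Fam214a held 10, 9 and 12 fragments, Pdgfc, a platelet-derived growth factor, 9, 10 and 10, and Gm1322 8, 10 and 11. Stxbp4, a syntaxin-binding protein, held 8, 9 and 9. Ptpn5 encodes STEP, a tyrosine phosphatase enriched in striatal and limbic neurons that dephosphorylates glutamate receptors and kinases. Its region (chr7:47108931-47109137) held 10, 14 and 21 fragments and lay 1.55 kb from the nearest vehicle peak. Adgrb3, an adhesion receptor of synapses, held 7, 13 and 13 fragments and lay 170 kb from the nearest vehicle peak. Pak7, a p21-activated kinase, held 8, 10 and 10, and Fbn2, a fibrillin of the extracellular matrix, 8, 8 and 9. Apart from Ptpn5 and Adgrb3, the 3 libraries differed by at most 3 fragments in each of these regions.

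Replicate 3 stood clearly above the other 2 libraries in 3 further regions. Negr1, a cell adhesion molecule of neurons (chr3:156908065-156908257), had 9, 7 and 23 fragments. Lhfpl3, a tetraspan membrane protein, had 10, 7 and 17, and Magi1, a scaffold protein of cell junctions, had 11, 7 and 17. In Adam12, a membrane-bound metalloprotease, replicate 1 was the low library, at 6 fragments against 15 and 19. The last of the 20, in Gm39469, had 7, 8 and 6 fragments.

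Of the members missing from exactly 1 estradiol list, the 8 with the highest lower −log10 q-value were all held by replicates 2 and 3. Asic2, an acid-sensing sodium channel (chr11:81486880-81487020), had 15 and 17 fragments in those lists, and Cntnap2, a neurexin-family adhesion protein, 19 and 14. Nos1ap, an adaptor of neuronal nitric oxide synthase, had 15 and 16, and Galnt17, a glycosyltransferase gene, 14 and 14. The remaining 4 were Stard13 (14 and 13), Cadm1 (11 and 14), a synaptic adhesion molecule, Camta1 (12 and 11), a calmodulin-binding transcription activator, and Hpse2 (11 and 10), a heparanase-like protein. The lower of the 2 −log10 q-values was at least 8.10 in each of these regions, and replicate 1 listed no peak there. Replicate 1 also had the fewest peaks of the estradiol lists, so a missing peak in it is not evidence of no binding.

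**Figure D2:**
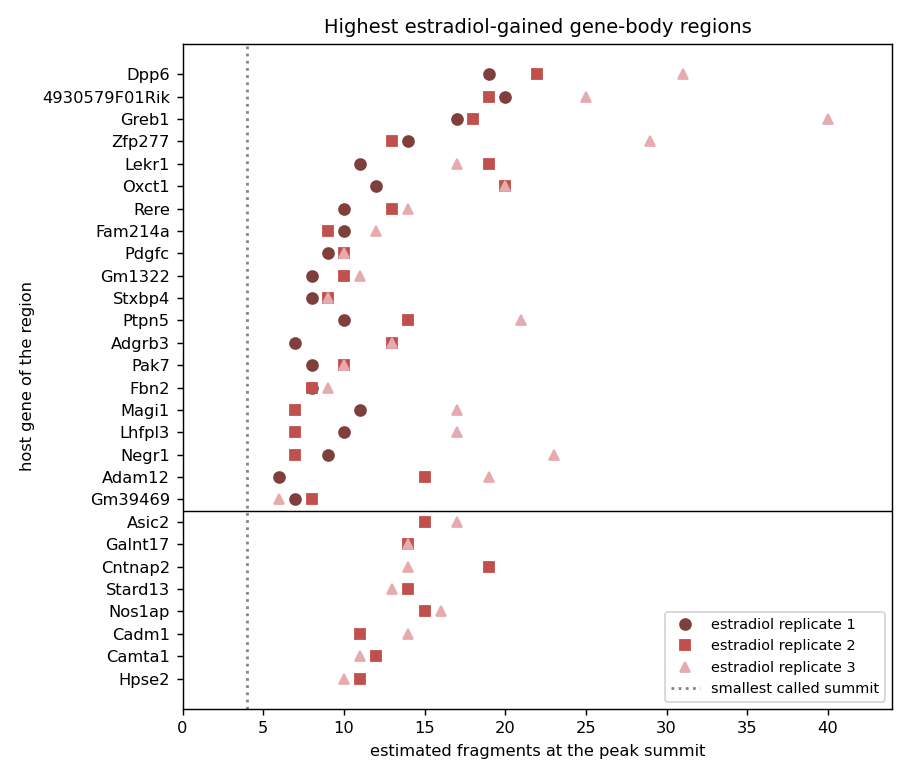
Estimated summit fragments (horizontal axis) of the 20 highest members held by all 3 estradiol lists (above the line) and the 8 highest held by exactly 2 (below it), named by host gene; each point is 1 library. The Greb1 region reaches 40 fragments in replicate 3, and the 8 lower regions have no point for replicate 1.

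The 588 members lay in 524 of the 21887 protein-coding genes (2.39%). Of these genes, 471 held 1 member, 42 held 2, 9 held 3 and 2 held 4, so 53 genes with 2 or more accounted for 119 members. Only 2 members lay in more than 1 gene. Members were found on 20 chromosomes, with 5 on the X chromosome. Long genes have more room for regions: the median host gene was 156 kb long against 17.2 kb for all protein-coding genes.

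Myo16, an unconventional myosin of neurons that binds phosphatase and actin regulators, held 4 members within 53.7 kb of its 481 kb span (chr8:10153911-10634742). The highest, at chr8:10525679-10525875, had 6, 14 and 20 fragments in replicates 1, 2 and 3, and a second, at chr8:10534994-10535083, had 5, 4 and 7. The other 2 were each missing from 1 library. Vehicle peaks lay between 0.088 and 5.08 kb from these 4 regions, so the vehicle lists held peaks close to all 4. Pard3, a scaffold of cell polarity, also held 4 members, all in exactly 2 lists, spread over 345 kb. Among the genes with 3 members, Dpp6 held a second region in all 3 lists, at chr5:27557127-27557245, 11.3 kb from the first, with 6, 8 and 15 fragments. Its remaining member was low, with 5 and 6 fragments in replicates 2 and 3. Lekr1 held its 3 members within 66.8 kb, and Gfra1, the GDNF co-receptor, held 3 within 63.9 kb. Lsamp, a limbic system-associated adhesion protein, held 3 over 1664 kb, the strongest with 4, 7 and 10 fragments. Cacna2d3, an auxiliary calcium channel subunit, held 3 low ones, with 4 to 8 fragments. Cntnap2 held 3, of which the one at chr6:46745600-46745697 had 5 fragments in each of the 3 libraries. Myo3b, Ptprd and Slco3a1 also held 3 members each and follow these by name.

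Some members were close neighbours. In 6 genes (Ptprd, Camta1, Inpp5f, Kcnip4, Rapgef4 and Tenm2), 2 members lay within 1 kb of each other. Kcnip4, a calcium-binding partner of A-type potassium channels, had 5, 9 and 16 fragments at chr5:48460436-48460584 and, beside it, 5 and 6 in replicates 2 and 3.

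Estradiol-gained regions were compared with other gene-body regions as a description, since the classes were made from the same peak calls. Along the host gene, from its 5′ to its 3′ end, the 463 members in genes with a known strand had a median position of 53.3%. The first 20% of the gene held 18.1% of them and the last 20% held 20.5%. Vehicle-gained regions had a median of 49.7% (277 regions) and regions found in 1 list 50.9% (7655 regions). Regions found in all 6 lists differed from these, with a median of 29.4% (367 regions) and 37.3% in the first 20% of the gene. Members lay a median of 36.2 kb from the nearest gene end, vehicle-gained regions 19.3 kb, regions in all 6 lists 6.43 kb and regions in 1 list 29.1 kb. A start window was overlapped by 2.72% of the members, by 5.01% of vehicle-gained regions, by 37.9% of regions in all 6 lists and by 3.05% of regions in 1 list. The median of the highest summit of a region was 7 fragments for members, 6 for vehicle-gained regions, 18 for regions in all 6 lists and 5 for regions in 1 list. On each of these measures the members lay nearer to regions in 1 list than to regions in all 6 lists. Of the 524 host genes, 37 (7.06%) also held a gene-body region found in all 6 lists, against 2.01% of all protein-coding genes, and host genes were longer. A non-coding gene was overlapped by 37 members (6.29%) and by 6.40% of regions in 1 list.

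**Figure D3:**
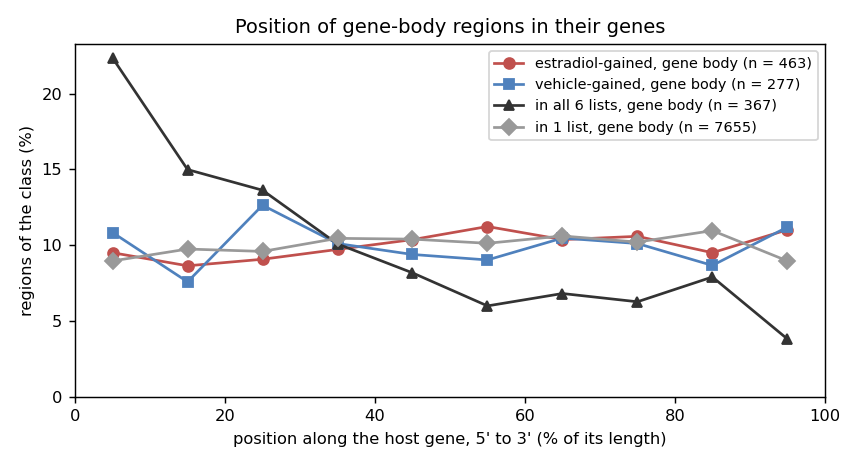
Share of each class of gene-body regions (vertical axis, %) in equal bins along the host gene from 5′ to 3′ (horizontal axis, % of gene length). The line of the members runs between 8.64% and 11.2%, while that of regions in all 6 lists starts at 22.3% and ends at 3.81%.

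Whether such regions recur in libraries that did not choose them was asked by selecting on 2 replicate numbers and reading the remaining one. Regions had to have a peak in both estradiol lists of the chosen numbers and in neither vehicle list. With replicate 1 held out, 423 gene-body regions were chosen, and 27.9% of them (95% exact binomial interval 23.7 to 32.4%) had a peak in the held-out estradiol list against 2.13% (0.977 to 4.00%) in the held-out vehicle list. With replicate 2 held out, 53.0% of 266 regions (46.8 to 59.1%) had an estradiol peak and 22.6% (17.7 to 28.1%) a vehicle peak. With replicate 3 held out, the shares of 368 regions were 59.8% (54.6 to 64.8%) and 46.2% (41.0 to 51.4%). The estradiol list held more of the chosen regions in 3 of 3 replicates, by 25.8, 30.5 and 13.6 percentage points. The mean difference was 23.3 ± 8.71 points (SD, n = 3), with a two-sided exact paired permutation p of 0.25, which is the smallest that 3 pairs allow. The mean difference changed when 1 library was left out. It was 2.25 points without estradiol replicate 2, 6.50 without estradiol replicate 1, 7.58 without estradiol replicate 3 and 13.0 without vehicle replicate 2. Each of these values rests on 2 pairs, because the replicate number of the missing library was dropped. Without an estradiol library, regions were chosen by 1 estradiol list instead of 2, which is a weaker choice. These values therefore do not measure the same quantity as the main value. The 3 held-out values of the full set share libraries and are not independent, the intervals cover counting error only, and the merging used all 6 lists.

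The held-out lists differed in length, and the same reading of other regions gives that background. Over all 14505 gene-body regions the estradiol list exceeded the vehicle list by 12.6, 1.11 and −6.71 points in replicates 1, 2 and 3 (2.32 ± 9.70, SD, n = 3; exact paired p = 0.75). The estradiol-chosen regions exceeded this background by 20.9 ± 8.09 points (SD, n = 3; exact paired p = 0.25). The 2 sets are unlike, because the background includes regions that only a held-out list called. Of its 14505 regions, 9767 were in 1 list. Regions chosen the same way by vehicle peaks were also held more often by the estradiol list of replicate 1, by 17.6 points (397 regions). For them the difference was −4.29 points in replicate 2 (70 regions) and −11.3 in replicate 3 (71 regions), with a mean of 0.693 ± 15.1 (SD, n = 3; exact paired p = 1). In replicate 1 the vehicle list held 5421 peaks and the estradiol list 11082, so the difference of 25.8 points there stands beside 17.6 points for vehicle-chosen regions. Regions with a peak in any 2 of the 4 choosing lists, which were also defined without the held-out lists, differed by 3.51 points on average. The difference of the estradiol-chosen regions from them was not tested.

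**Figure D4:**
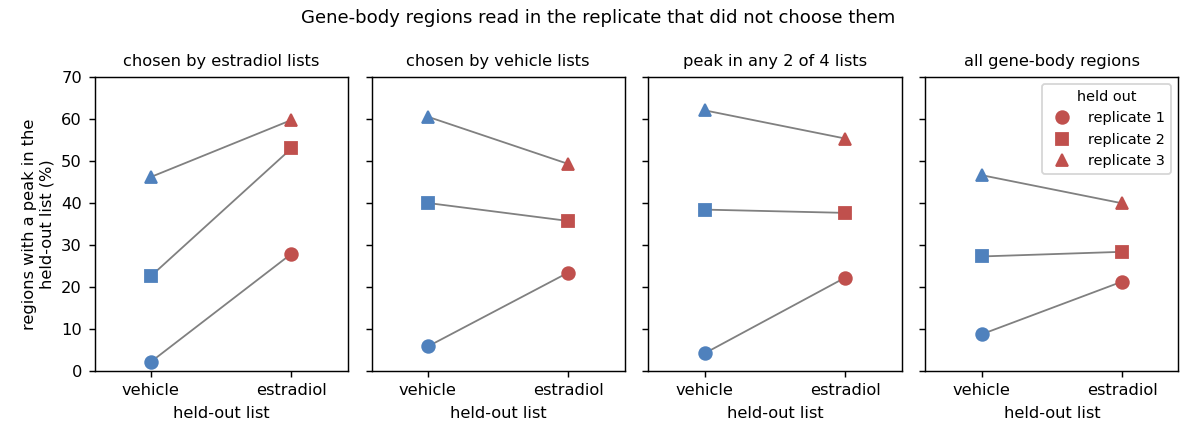
Share of gene-body regions with a peak in the held-out vehicle list (blue) and estradiol list (red), on the vertical axis in %, for regions chosen in 4 ways; each line is 1 held-out replicate. All 3 lines climb for regions chosen by estradiol lists (by 25.8, 30.5 and 13.6 points), while 1 of 3 climbs for regions chosen by vehicle lists.

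Regions with high peaks were read in the same way. Among regions with a −log10 q of at least 5 in both choosing estradiol lists, the held-out estradiol and vehicle lists held 51.4% and 1.87% (107 regions), 75.6% and 15.6% (45 regions) and 84.7% and 45.8% (59 regions) in replicates 1, 2 and 3. The mean difference was 49.5 ± 10.5 points (SD, n = 3; exact paired p = 0.25). Regions with such high peaks in both choosing vehicle lists were few (37, 3 and 2), and the estradiol list minus the vehicle list was 35.1, 0 and 50 points (28.4 ± 25.7, SD, n = 3; exact paired p = 0.5). This threshold was chosen after seeing the data, and its difference from the value for all chosen regions was not tested. Estradiol-chosen regions outside genes gave 24.8 ± 4.35 points, and the difference of gene-body regions from them was −1.49 ± 5.68 points (SD, n = 3; exact paired p = 0.75). Regions at gene ends gave 8.90 ± 19.0 points, and the difference of gene-body regions from them was 14.4 ± 12.5 points (SD, n = 3; exact paired p = 0.25). A p that misses the threshold in a design of this size does not show that these classes were alike. Requiring a library's peaks to cover 50% of a region gave, for the chosen gene-body regions, a difference of 11.7 points.

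The number of gene-body peaks in a list varied more between libraries of a group than between the groups. The vehicle lists held 1281, 3982 and 6789 gene-body peaks in replicates 1, 2 and 3, and the estradiol lists 3112, 4152 and 5821. The means were 4017 ± 2754 and 4362 ± 1367 (SD, n = 3 each; two-sided exact permutation p = 0.9, where 3 against 3 cannot go below 0.1). As a share of all peaks these were 23.6, 29.0 and 33.1% for vehicle and 28.1, 29.4 and 33.2% for estradiol, with a difference in means of 1.64 points (exact permutation p = 0.6). Within replicates 1 and 2 the difference in number was 1000.5 peaks and in replicate 3 it was −968. The order of the 3 replicates was the same in both groups, and replicate 3 was the longest list in each.

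The number of members changed with the libraries used. Within replicates 1 and 2 alone, 368 gene-body regions had a peak in both estradiol lists and in no vehicle list, and 71 the reverse. Within replicate 3 alone, 3307 had an estradiol peak only and 4280 a vehicle peak only. With 1 list per group, the difference between these counts is fixed by how many gene-body regions each list held. The estradiol list of replicate 3 held 5791 and the vehicle list 6764. These counts therefore give no direction of their own and are not comparable with those from replicates 1 and 2. Without vehicle replicate 3 there were 1000 estradiol-gained and 35 vehicle-gained regions. Without estradiol replicate 1 there were 409 and 462, without estradiol replicate 2 there were 202 and 506, and without estradiol replicate 3 there were 196 and 635, where both remaining estradiol lists had to hold a region but only 2 of 3 vehicle lists. With every list shortened to its 5421 highest peaks, the counts were 199 and 99, and 95 of the 588 members (16.2%) were overlapped by the shorter set. The excess of 588 over 359 turned to the other direction without any 1 of the 3 estradiol libraries. Leaving out a library makes the rule stricter for its own group, so this change is partly built in.

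The genes of the members were then read by lists of known function. For each list, the share of its gene-body regions that were estradiol-gained is given beside the 4.05% over all gene-body regions and, for vehicle-gained regions, 2.48%. Where genes with a member are counted, the share over all protein-coding genes was 2.39%. Such counts rise with gene length, so members per 10 Mb of gene length are added there, against 5.95 over all genes. The lists were chosen with results of these data known, so the shares are descriptions. Of the 22 lists, 13 had a member. The other 9 had none.

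The list of genes that estrogen induces in other tissues had 5 members among 23 gene-body regions (21.7%) and 0 vehicle-gained regions. The members lay in 4 of 25 genes, at 40.3 per 10 Mb from only 1.24 Mb of gene length. Greb1 was described above, and its second region, at chr12:16719075-16719120, held 4, 5 and 4 fragments, at or next to the smallest called height in all 3 libraries. Nrip1, which encodes the nuclear receptor corepressor RIP140, held a member at chr16:76321736-76321861 with 13 and 8 fragments in replicates 2 and 3, which lay 0.124 kb from a vehicle peak. Rerg, a Ras-like growth inhibitor regulated by estrogen in breast cancer cells, held one at chr6:137110968-137111100 with 6 and 11 fragments in replicates 2 and 3. Igf1, insulin-like growth factor 1, held one at chr10:87927291-87927420 with 6 and 5 fragments in replicates 1 and 3, which lay 0.046 kb from a vehicle peak. Only the Greb1 regions of this list were held by all 3 libraries. Esr1 itself, Pgr and Mc4r held no member. The rule leaves out 1 kb at each gene end, so a short gene has little or no room for one. The numbers of gene-body regions in these genes are not given here.

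Receptor tyrosine kinases and their ligands had 8 members among 88 regions (9.09%), against 2.27% vehicle-gained. The members lay in Erbb4, Nrg1, Ntrk2, Ntrk3, Igf1 and Igf1r. Igf1r, the receptor of Igf1, held a member with 7 and 10 fragments in replicates 2 and 3, and Ntrk2, the receptor of brain-derived neurotrophic factor, held 2, of which the one 87.1% along the gene had 5 and 8 fragments in the same libraries. In Erbb4, a neuregulin receptor, the members had 6 or 7 fragments, and 1 of the 2 lay 0.055 kb from a vehicle peak. Ntrk2 was also the single gene with members in the melanocortin and feeding circuit list (2 of 16 regions, 12.5%, and 0 vehicle-gained). No member of this list lay in a melanocortin receptor gene, but the rule leaves little room for a member in any short gene.

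Potassium channels and their auxiliary subunits had 9 members among 128 regions (7.03%), against 2.34% vehicle-gained. Among them were members in Dpp6, Kcnip4, Kcnj6, Kcnd3 and Kcnh1. Kcnj6, the inward rectifier GIRK2 that G proteins open, held a member at chr16:94821695-94821861 with 5, 6 and 15 fragments in replicates 1, 2 and 3. Kcnd3, a pore-forming subunit of the A-type channels that Dpp6 and Kcnip4 accompany, held one with 8 and 12 fragments in replicates 2 and 3. Sodium and calcium channels had 7 members among 147 regions (4.76%), near the share of all genes, against 0.680% vehicle-gained. Of these, the Cacna1e region, in the gene of an R-type calcium channel, held 4, 7 and 10 fragments, and the Ryr2 region, in the gene of an intracellular calcium release channel, lay 0.027 kb from a vehicle peak.

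Glutamate receptors had 8 members among 113 regions (7.08%), against 1.77% vehicle-gained. Of the 21 genes, which are long, 7 held one, at 8.71 members per 10 Mb. Grin2b, an NMDA receptor subunit, held 2, and the one at chr6:135958981-135959166 had 6, 4 and 11 fragments. Grin2a, another NMDA receptor subunit, held one with 8 and 7 fragments in replicates 2 and 3. In Grm7, a metabotropic receptor, replicates 1 and 3 held 4 and 11 fragments, and in Grik2, a kainate receptor subunit, replicates 2 and 3 held 5 and 11. The Grik2 region lay 0.027 kb from a vehicle peak. Replicate 3 was the highest library in 3 of these 4 regions. Among GABA-A receptor subunits, Gabrg3 and Gabrg1 held the 2 members of 36 regions (5.56%), against 2.78% vehicle-gained. The Gabrg3 region, at chr7:57246790-57246883, had 6, 10 and 11 fragments and lay 137 kb from the nearest vehicle peak.

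Cyclic nucleotide and phosphodiesterase signalling had 12 members among 155 regions (7.74%), and 9 of its 21 genes held one, at 13.7 members per 10 Mb. The list is wider than its name: its hosts Prkce, Rgs6 and Rgs7 are neither cyclic nucleotide nor phosphodiesterase genes. Vehicle-gained regions were also above the share of all genes in this list, at 3.87%. Prkce, protein kinase C epsilon, held a member at chr17:86263966-86264201 with 7, 19 and 27 fragments, which by highest −log10 q came after those in Greb1 and Dpp6 among the list genes. Rgs7, a regulator of G protein signalling in neurons, held one in all 3 lists with 8, 5 and 6 fragments. Pde4b, a cAMP phosphodiesterase, held one with 6 and 9 in replicates 2 and 3. Rapgef4, the cAMP-activated exchange factor EPAC2, held 2 members within 1 kb of each other, with 4 and 5 fragments in replicates 1 and 2 and 8 and 7 in replicates 2 and 3.

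Limbic and hypothalamic transcription factors had 8 members among 109 regions (7.34%) and a vehicle-gained share of 0.917%. Tox, an HMG-box factor, held a member with 7 and 10 fragments in replicates 1 and 2. Bcl11b, a zinc finger factor of striatal neurons, held one with 7 and 5 in replicates 1 and 3, and Foxp1, a forkhead factor, one with 5 and 4 in replicates 2 and 3. These summits were near the smallest called height, apart from the one in Tox. Synaptic adhesion genes, which are long, had the most members of any list, 18 among 350 regions (5.14%), against 2.29% vehicle-gained. These lay in 11 of 36 genes, at 5.71 members per 10 Mb, slightly below the 5.95 over all genes. Their highest regions were those of Magi1, Cntnap2 and Cadm1 given above and one in Ptprd, a receptor phosphatase of synapses.

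Axon guidance genes had 3 members among 117 regions (2.56%), against 1.71% vehicle-gained. The member in Slit1, a secreted guidance cue, held 5, 7 and 8 fragments. Nuclear receptors had 3 among 78 (3.85%), in Nr6a1, Rora and Rarg, against 5.13% vehicle-gained. The Nr6a1 region, in the gene of an orphan receptor, held 6, 7 and 4 fragments, and the Rora region lay 0.004 kb from a vehicle peak. Coregulators had 2 among 47 (4.26%), including the Nrip1 region given above, and the same share was vehicle-gained.

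**Figure D5:**
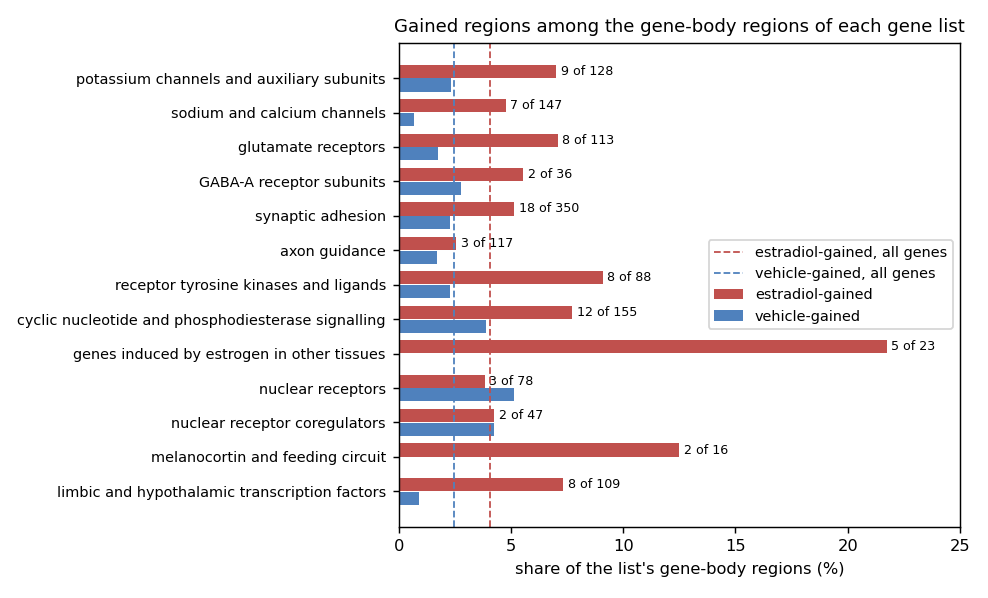
Share of a list's gene-body regions (horizontal axis, %) that were estradiol-gained (red) or vehicle-gained (blue), for the 13 gene lists with at least 10 gene-body regions; dashed lines are the shares over all genes, 4.05% and 2.48%. The longest bar is that of genes induced by estrogen in other tissues, from 5 of 23 regions.

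Markers of GABAergic and glutamatergic neurons, astrocytes, oligodendrocytes, microglia, endothelium and ependyma held no member. These 7 lists have 53 genes but only 41 gene-body regions. As an approximate 95% limit of 3 counts, which treats regions as independent, 0 of 41 allows a share of up to 7.32%. That limit lies above the 4.05% of all gene-body regions, so a lower share was not detectable. Immediate early genes and genes of liver, heart and pancreas also held no member, with 7 gene-body regions each.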

How the data were processed

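Each library came with 1 peak list in narrowPeak form. The build was mm10, and MACS2, Bowtie2, cutadapt, SAMtools, Picard and deepTools are listed with no version or role, per the submitters' processing notes. Use of a control library was not given in the sources used here. The deposited values of a peak were an integer score, its fold enrichment (a ratio), p and q as −log10 p-value and −log10 q-value, and the summit position, and the peak names in the files carry a q-value of 0.01. These are the authors' own values, used here only within a list, for description, ranking and filters. Summit fragments were estimated from the deposited fold and p-value, assuming a pseudocount of 1 and a Poisson tail. Whole numbers matched within 0.0002 for all but 3 of 82442 peaks, with a median of 6.

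Peaks sharing or touching by 1 bp were merged. Gene spans came from a RefSeq table of GRCm38.p6, whose coordinates are those of mm10. Strand was taken from the start windows, which 17492 of 21887 genes had. Tests were two-sided exact permutation tests (Python 3.11.15, SciPy 1.17.1, NumPy 2.4.6, pandas 2.3.3), and the scripts were tested on simulated data. The deviations of same-numbered libraries correlated at −0.0524, 0.0154 and −0.0308. Those of differently numbered libraries ran from −0.0153 to 0.0516. All of these values were small, so they do not decide whether libraries were paired by replicate number. List lengths had the same order of replicate numbers in both groups. The held-out tests were paired by number because each choice left out 1 number. The planned count of response elements per library was not run because no genome was used here.

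The members, the gene lists and the rule for named genes were chosen with earlier results of these data known. Named were the 20 highest members in all 3 estradiol lists, the 8 highest in exactly 2, the 8 genes with most members, up to 4 host genes per list, any member in Esr1, Pgr, Greb1 or Mc4r, and the regions next to the distance limit. The start-window genes, the further genes with 3 members or close neighbours, and the list hosts named without values stand outside it. Some genes that the rule covers are not reported here. Alternatives were a −log10 q of at least 3, equal list lengths, merging within 200 bp, 50% cover, a 5 kb margin, all 3 lists, each library left out and a replicate block.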

Additional observations from a re-analysis of the deposited data

How the results depend on the processing

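The number of members stayed within 1.5 times of 588 with a −log10 q of at least 3 (450), merging within 200 bp (633), 50% cover (506) and a 5 kb margin (520). It was 199 with lists of equal length and 115 when all 3 estradiol lists were required, where fewer peaks or regions can pass by construction. Leaving out 1 library gave 196 to 1000 members, the lowest without estradiol replicate 3 and the highest without vehicle replicate 3. Without estradiol replicate 2 the number was 202. By construction, fewer regions can pass without an estradiol library and more without a vehicle library. A replicate block, counting regions that had an estradiol and no vehicle peak in at least 2 replicate numbers and never the reverse, gave 722 and, with the treatments exchanged, 414.

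The mean held-out difference of 23.3 points stayed positive under every alternative run. It was 11.7 with 50% cover and 21.3 to 24.8 under the other settings of peaks and regions, apart from the high-peak value of 49.5. Single pairs did not always keep the sign of the mean. Without estradiol replicate 2, the 2 remaining pairs did not both favour the estradiol list. Leaving out 1 library gave 2.25 to 20.8 points, the lowest without estradiol replicate 2 and the highest without vehicle replicate 1. Those values rest on 2 pairs and, without an estradiol library, on regions chosen by 1 estradiol list. Without the replicate block, the exact permutation p of the 23.3 points was 0.2. The difference in the share of peaks in gene bodies was 1.64 points (exact permutation p = 0.25 with the replicate block) and ranged from −0.829 (without vehicle replicate 1) to 3.88 as libraries were left out. That in the number of gene-body peaks ranged from −1024 to 1730.2, with −385 without estradiol replicate 3, and the replicate block gave an exact permutation p of 0.75. The cause of these reversals was not tested. The smallest called summit held 4 fragments, and no alternative varied the depth. Groups of 3 were not screened for outlying libraries.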
